A study of Mus musculus with 5 samples.

Results

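Levels of 7 genes of the tumour necrosis factor (TNF) family were examined in sorted lymphocytes from mouse kidney and small intestine after unilateral ureteral obstruction (UUO), an operation that ties off 1 ureter and injures the kidney it drains. The genes were taken by symbol from the gene lists of the libraries. Wild-type kidney at day 14 of UUO was given the list of other libraries by row order. All 7 genes were found among 31253 genes. Of these, 6 encode ligands: Lta and Ltb (lymphotoxin alpha and beta), Tnf, Tnfsf11 (RANKL), Tnfsf8 (CD30 ligand) and Cd40lg (CD40 ligand). The last gene, Tnfrsf4, encodes OX40, which is a receptor of the family and not a ligand. Expression matrices were analysed for 4 of 5 libraries, 1 library per group: kidney labelled PD-1 knockout (strain label B6.Cg-Pdcd1tm1.1Shr/J) at day 3 of UUO, wild-type kidney at day 14 of UUO, wild-type small intestine at day 3 of UUO, and wild-type small intestine after sham surgery, in which the ureter was exposed but not tied. All groups were male mice aged 8 to 10 weeks, operated on the left ureter. The labels gave sorted innate lymphoid cells (ILCs) for kidney and group 3 ILCs for intestine, and did not give the number of mice pooled in a library. Of the wild-type kidney library at day 3 of UUO only the list of cell barcodes was used here, so that the 2 kidney libraries compared differed in genotype and in day together, which cannot be told apart.

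Ligands of the TNF family are mostly made as trimers on the cell surface and bind receptors that recruit TRAF adaptors and activate the transcription factor NF-kB. Lymphotoxin alpha and beta together form a membrane complex that binds the lymphotoxin beta receptor on stromal cells. With RANKL, it is the signal by which lymphoid tissue inducer cells, a kind of group 3 ILC (ILC3) that carries CCR6, build lymph nodes and the small follicles of the gut. TNF is an inflammatory cytokine of many cell types. CD40 ligand is the signal that helper T cells give to B cells, CD30 ligand and OX40 belong to activated lymphocytes, and OX40 is high on regulatory T cells.

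Ltb, Tnf and Lta are neighbours in the major histocompatibility complex on mouse chromosome 17 (build GRCm38). Ltb lies at chr17:35194439-35196320 on the plus strand, Tnf at chr17:35199381-35202007 and Lta at chr17:35203165-35205351, both on the minus strand. Between Ltb and Tnf lie 3060 bases, and between Tnf and Lta 1157 bases, so that the 3 genes fit in 10913 bases. Tnfsf11 lies at chr14:78277445-78308043 and Tnfsf8 at chr4:63831308-63861347, both on the minus strand. Cd40lg lies at chrX:57212143-57224042 and Tnfrsf4 at chr4:156013843-156016612, both on the plus strand. Annotated microRNA genes overlap Lta (Mir6974) and Ltb (Mir6973a) on the same strand, and reads from a gene and such a partner cannot be separated by strand.

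The sequences before the start sites of the 3 neighbours and of Tnfsf11 are shown because these neighbours, though they share a locus, had different patterns over the cell classes, and because Tnfsf11 marked the ILC3-like cells. They are RefSeq promoter sequences on GRCm38.p6, 5′ to 3′ on the strand of the gene, limited to the bases that lie outside the annotated gene. Of the 7 genes, 6 had an entry in the table of promoters, and Cd40lg had none. The capitals mark a match to the NF-kB motif, here GGG, any 2 bases and then TTTCC, read on the opposite strand.
Ltb promoter: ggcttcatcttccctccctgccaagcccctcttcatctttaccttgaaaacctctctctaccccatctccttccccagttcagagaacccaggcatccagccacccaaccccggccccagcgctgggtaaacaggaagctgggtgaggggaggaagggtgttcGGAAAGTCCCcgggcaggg
Tnf promoter: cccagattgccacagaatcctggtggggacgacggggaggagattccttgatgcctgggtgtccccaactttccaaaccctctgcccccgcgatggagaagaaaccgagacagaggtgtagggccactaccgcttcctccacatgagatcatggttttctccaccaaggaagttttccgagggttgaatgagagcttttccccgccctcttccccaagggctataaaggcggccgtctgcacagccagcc
Lta promoter: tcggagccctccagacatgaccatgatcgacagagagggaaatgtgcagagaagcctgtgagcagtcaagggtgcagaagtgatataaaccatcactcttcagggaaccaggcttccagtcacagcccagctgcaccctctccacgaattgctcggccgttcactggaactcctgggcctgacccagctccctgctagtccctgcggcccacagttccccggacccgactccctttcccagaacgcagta
Tnfsf11 promoter: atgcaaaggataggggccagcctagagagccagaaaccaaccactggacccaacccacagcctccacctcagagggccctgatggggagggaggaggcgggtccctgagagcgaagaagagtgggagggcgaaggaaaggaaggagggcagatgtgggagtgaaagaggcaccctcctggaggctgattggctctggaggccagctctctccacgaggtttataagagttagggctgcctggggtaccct
The Ltb sequence is chr17:35194257-35194438, that of Tnf chr17:35202008-35202257, that of Lta chr17:35205352-35205601 and that of Tnfsf11 chr14:78308044-78308293. In the 250 bases before the RefSeq start site, searched on both strands, Ltb alone among the 6 held a match to the NF-kB motif, GGAAAGTCCC. The match begins 87 bases before that start. For Ltb the RefSeq start lies inside the annotated gene, so the sequence shown stops short of it. Among 32851 promoters of the same length, 464 (1.41%) held this motif. The AP-1 motif TGANTCA was in none of the 6 and in 2217 of all promoters (6.75%). A match or its lack describes these letters only.

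After filters on depth and mitochondrial share, 6960 cells of the PD-1 knockout-labelled kidney, 5212 of the wild-type kidney, 4946 of the UUO intestine and 3501 of the sham intestine remained, with medians of 2064.5, 1824, 2177 and 2039 unique molecular identifiers (UMIs, counted RNA molecules) per cell. Cells were clustered without the 7 genes and named from marker genes. Kidney libraries, though labelled as innate lymphoid cells, were 63.4% (PD-1 knockout label) and 66.7% (wild type) T-like cells. Intestinal libraries were 83.8% (UUO) and 88.8% (sham) ILC3-like cells, which carried Il23r, the interleukin 23 receptor gene, at 374 and 372 CPM (UMIs of the gene scaled to the total of the class) and Cd3e at 3.74 and 4.20 CPM. Pdcd1, the targeted gene, stood at 190 CPM under the PD-1 knockout label and 127 CPM in wild-type kidney. Its 3′ tags can lie outside the deleted part, so these counts do not check the label. The 2 intestinal libraries shared 158 cell barcodes, against 22 to 27 for the other pairs compared. Of the shared barcodes, 17 fell in ILC3-like cells of each library, and 91 (UUO) and 90 (sham) in cells that resembled gut epithelium.

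Each level below is the CPM of UMIs summed over a class of cells in 1 library, with its exact 95% Poisson interval. With 1 library per group no test was possible. A difference passed the threshold when it was at least 1.5 fold, its exact 95% interval did not hold a log2 ratio of 0, and at least 100 UMIs were counted on both sides together. These intervals cover counting error only, not the spread between mice. The share of all tested genes past the same threshold is given beside the first count of members in each comparison. Shares of cells with a UMI are given after thinning each cell to 1000 UMIs, so that depth does not set them.

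RANKL RNA was several fold higher in intestinal ILC3-like cells than in any kidney class, though the organs were sequenced in separate libraries. Tnfsf11 stood at 2048 CPM (2019 to 2077) in ILC3-like cells of the UUO intestine and 1879 CPM (1846 to 1912) in those of the sham intestine. At least 1 Tnfsf11 UMI was found in 64.5% and 63.4% of thinned cells (75.7% and 75.3% unthinned). In the epithelium-like cells of the same libraries, which serve as a measure of free RNA, the thinned share was 14.6% (UUO) and 15.9% (sham) at median depths of 3085 and 1708 UMIs, against 2174.5 and 2040.5 UMIs in ILC3-like cells. Kidney cells had Tnfsf11 at much lower levels. In ILC2-like cells, group 2 ILCs marked by Gata3 and Il1rl1, it was 199 CPM (183 to 217) in the PD-1 knockout-labelled library and 286 CPM (257 to 316) in wild type. T-like cells of the CD4 gate, those with Cd4 and no Foxp3, Cd8 or Trdc UMI, had nearly the same levels, 200 CPM (168 to 236) and 255 CPM (225 to 289). ILC1/NK-like cells had 10.5 and 19.6 CPM and B-like cells 13.2 and 22.8 CPM. The thinned share was 0.898% and 0.997% in ILC1/NK-like cells, and 1.14% and 2.27% in B-like cells. With only 93 and 107 B-like cells before thinning, these shares cannot show whether the ILC1/NK-like level is background.

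Ltb, the membrane anchor of the lymphotoxin complex, was found in every lymphocyte class. Its level was 262 CPM (252 to 272) in ILC3-like cells after UUO and 299 CPM (286 to 312) after sham. ILC2-like cells had 459 CPM (434 to 486) in the PD-1 knockout-labelled library and 493 CPM (456 to 533) in wild type. ILC1/NK-like cells had 264 CPM in both kidney libraries. The T-like gates ranged from 250 CPM (CD8 gate, PD-1 knockout label) to 490 CPM (regulatory gate, PD-1 knockout label), and B-like cells had 140.5 and 169 CPM. Epithelium-like cells were lowest, at 29.4 CPM (UUO) and 60.6 CPM (sham). The Ltb levels of all lymphocyte classes thus lay within 4 fold of each other, whereas those of Tnfsf11 spanned a far wider range.

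Lta, the secreted partner that completes the complex, was low wherever it was measured. ILC3-like cells had 31.2 CPM (27.8 to 35.0) after UUO and 32.2 CPM (28.1 to 36.8) after sham, with a UMI in 3.02% and 2.88% of thinned cells. No class or gate of at least 100 cells passed 50 CPM. Among kidney clusters, T-like cluster 4 had 35.4 CPM (25.0 to 48.6) in the PD-1 knockout-labelled library and 35.5 CPM (29.0 to 43.1) in wild type, whereas T-like cluster 0, led by Cd8b1 and Cd8a, had 6.57 and 7.42 CPM. No Lta UMI was counted in B-like cells of either library, which allows up to 13.2 CPM (PD-1 knockout label) and 13.7 CPM (wild type).

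Tnf was higher in ILC3-like cells than in most kidney classes. It stood at 97.9 CPM (91.7 to 104) in ILC3-like cells after UUO and 72.9 CPM (66.5 to 79.6) after sham. Epithelium-like cells of these libraries had 18.5 and 30.7 CPM. In the kidney, CD4-gated T-like cells had 28.1 CPM (17.2 to 43.5) in the PD-1 knockout-labelled library and 63.0 CPM (48.3 to 80.8) in wild type. ILC2-like, ILC1/NK-like and CD8-gated cells lay between 13.5 and 21.7 CPM in both libraries, and their intervals overlapped one another.

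The last 3 genes were highest in gates of T-like cells, though Tnfsf8 and Tnfrsf4 were not confined to them. Tnfsf8 was highest in the CD4 gate, at 626 CPM (569 to 687) in the PD-1 knockout-labelled library and 276 CPM (245 to 311) in wild type. Among classes and gates, Cd40lg was also highest there, at 113 CPM (89.3 to 140) and 297 CPM (264 to 333). By cluster, T-like cluster 4 had 155 CPM in the PD-1 knockout-labelled library, above the CD4 gate, and 213 CPM in wild type, below it. The Tnfrsf4 level was highest in the regulatory gate, defined by Foxp3, at 522 CPM (359 to 733) over 31 cells of the PD-1 knockout-labelled library and 1258 CPM (1144 to 1382) over 193 wild-type cells. Those gates differed in make-up: cluster 12, the one with Foxp3 among its markers, held 45.2% of the PD-1 knockout-labelled cells and 85% of the wild-type cells. The CD4 gate came next for Tnfrsf4, at 315 CPM (275 to 359) and 213 CPM (186 to 244), and ILC2-like cells had 51.2 and 62.0 CPM. The ILC2-like level was above that of the CD8 gate in wild type (22.4 CPM) and below it in the PD-1 knockout-labelled library (60.6 CPM).

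In ILC3-like cells Cd40lg and Tnfrsf4 were near 0. Cd40lg had 1 UMI among 4146 UUO cells and 0 among 3108 sham cells, which allows up to 0.450 CPM. Tnfrsf4 had 20 and 14 UMIs, 2.14 and 2.10 CPM. Tnfsf8 was the exception, at 60.8 CPM (55.9 to 66.0) after UUO and 75.9 CPM (69.4 to 82.8) after sham, above its 5.17 and 8.30 CPM in epithelium-like cells.

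**Figure D1:**
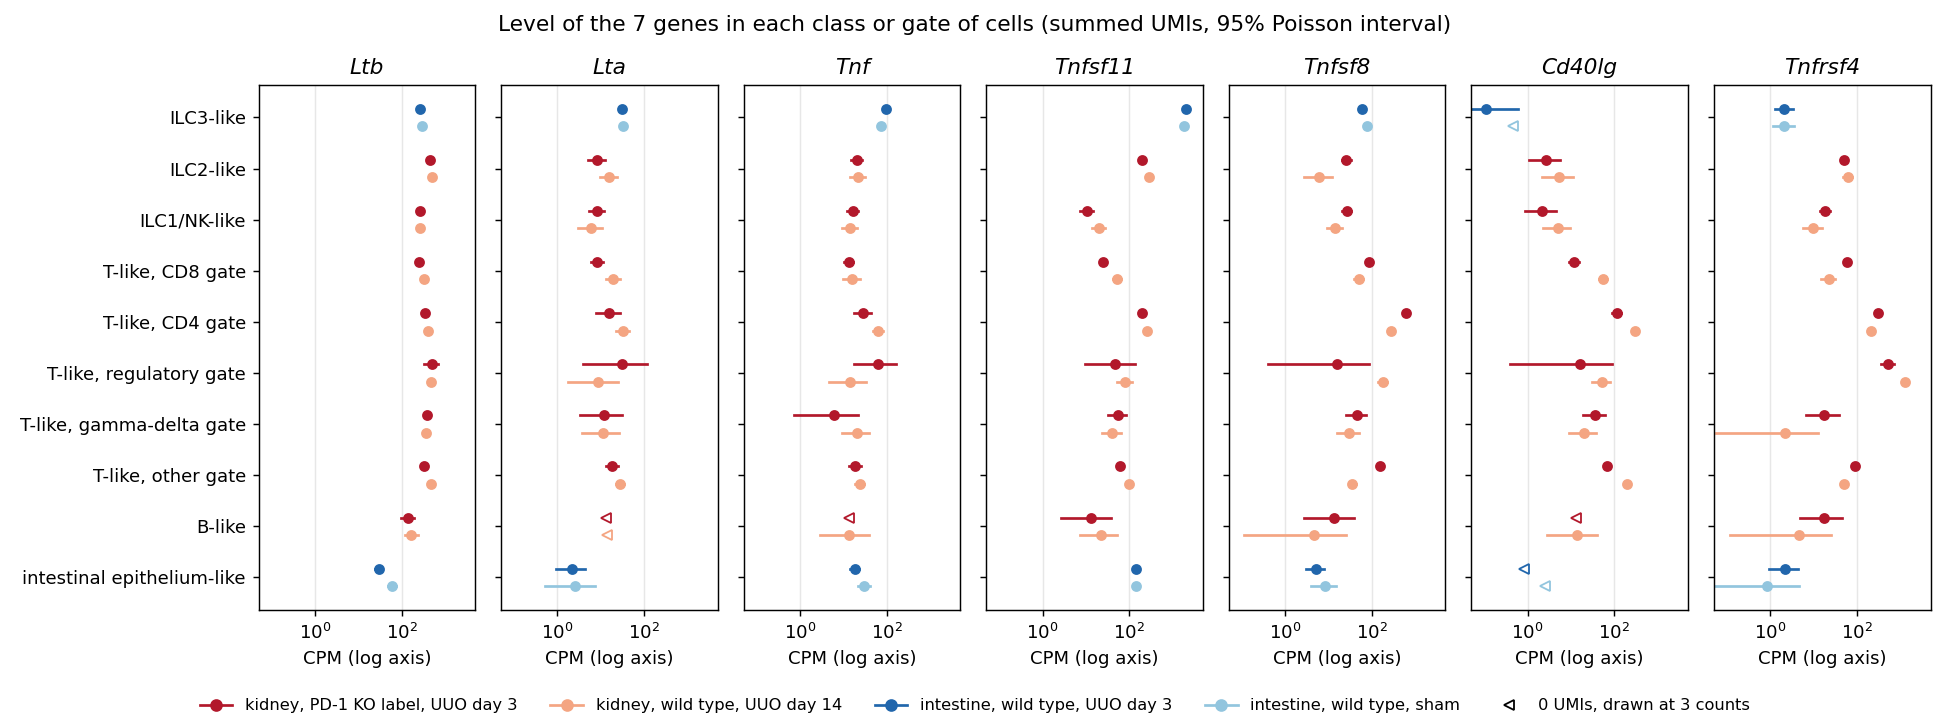
Level of each gene (CPM, log axis) in each class or gate of cells, 1 point per library with its 95% Poisson interval; open triangles mark 0 UMIs, drawn at the level of 3 counts. Tnfsf11 is near 2000 CPM in ILC3-like cells and at most 286 CPM in the other classes drawn, Ltb is of similar level in all lymphocyte classes, and Cd40lg, Tnfsf8 and Tnfrsf4 are highest in T-like gates.

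Intestinal ILC3-like cells were divided by genes that are no members. The CCR6 gate was named after Ccr6, a gene that lymphoid tissue inducer cells carry. It held at least 1 UMI of Ccr6, Cd4, Nrp1 or Cxcr5 and none of Ncr1, Ccr9, Klrb1c, Klrk1, Tbx21 or Cxcr3. The NCR gate, named after the natural cytotoxicity receptor gene Ncr1, was the reverse. Among all ILC3-like cells, Ncr1 was counted in 430 (UUO) and 393 (sham) cells, and Klrk1 in 2320 and 1500. Most NCR-gated cells thus held no Ncr1 UMI. Cells could also enter the CCR6 gate on Cd4, Nrp1 or Cxcr5 without Ccr6, and the names of both gates are labels only. The CCR6 gate had 864 (UUO) and 693 (sham) cells and the NCR gate 1533 and 1097. A further 27.5% (UUO) and 23.6% (sham) of ILC3-like cells held UMIs of both sets of genes, and 14.6% and 18.9% of neither. Such cells were left out of the comparison of the gates, and their levels are not given. Of the CCR6-gated cells, 43.3% and 45.9% entered on 1 UMI, as did 26.2% and 30.8% of the NCR-gated ones.

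CD30 ligand RNA was higher in the CCR6 gate and TNF RNA was higher in the NCR gate, in both libraries, and RANKL RNA was past 1.5 fold in the CCR6 gate after UUO only, a difference between libraries that was not tested. Tnfsf8 stood at 138 CPM (122 to 156) in the CCR6 gate and 19.6 CPM (15.3 to 24.7) in the NCR gate after UUO. In the sham library it was 117 CPM (99.7 to 136) and 40.0 CPM (32.5 to 48.7). These are log2 ratios of 2.82 (2.43 to 3.22) and 1.54 (1.18 to 1.92), and in neither library did the intervals of the gates overlap. The thinned share of Tnfsf8-positive cells was 6.29% against 1.17% after UUO and 5.97% against 2.36% after sham, with 0.573% (UUO) and 0.794% (sham) in epithelium-like cells.

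The Tnf levels ran the other way. Tnf was 50.8 CPM (41.1 to 62.1) in the CCR6 gate and 144 CPM (132 to 157) in the NCR gate after UUO. The sham values were 42.5 CPM (32.6 to 54.5) and 99.2 CPM (87.1 to 112). The log2 ratios were -1.50 (-1.83 to -1.18) and -1.22 (-1.65 to -0.81). Ltb, the neighbour of Tnf on chromosome 17, leaned to the CCR6 gate, past 1.5 fold after UUO only, as given below.

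Ltb was 342 CPM (316 to 370) in the CCR6 gate and 208 CPM (193 to 223) in the NCR gate after UUO, a log2 ratio of 0.72 (0.57 to 0.87). In the sham library it was 336 CPM (307 to 367) and 246 CPM (226 to 266), a log2 ratio of 0.45 (0.28 to 0.63) that did not reach 1.5 fold. Tnfsf11 behaved alike, at 2573 CPM (2500 to 2646) against 1584 CPM (1543 to 1626) after UUO and 2214 CPM (2138 to 2291) against 1603 CPM (1554 to 1654) after sham. Its log2 ratio was 0.70 (0.64 to 0.76) after UUO and 0.47 (0.40 to 0.53) after sham, where it fell short of 1.5 fold. For both genes the intervals of the gates were apart in each library. Lta was 36.9 CPM in the CCR6 gate and 25.6 CPM in the NCR gate after UUO, a log2 ratio of 0.53 (0.05 to 0.99), and 45.3 and 24.9 CPM after sham, 0.86 (0.34 to 1.39).

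Of the 7 genes, 5 had enough UMIs for this comparison in each library. In the UUO library 3 were past the threshold in the CCR6 direction and 1 in the NCR direction, where 5.7% and 6.12% of 6619 genes were. In the sham library 2 were higher and 1 lower in the CCR6 gate, where 5.53% and 5.8% of 5623 genes were. Tnfsf8 and Tnf passed in both libraries.

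The same division was seen gene by gene. Cells with a UMI of Ccr6, Cd4, Nrp1 or Cxcr5, taken singly, had Tnfsf11 between 1980 and 2659 CPM, and cells with a UMI of each of the 6 NCR gate genes had between 958 and 1903 CPM. For Tnfsf8 the ranges were 74.3 to 169 CPM and 10.3 to 65.2 CPM. For Tnf they were 36.7 to 76.5 CPM and 85.5 to 161 CPM. None of these 3 pairs of ranges of levels overlapped, although the sets of cells did, and the counting intervals at their edges overlapped for all 3 genes. In the sham library Tnf was 76.5 CPM (59.6 to 96.6) with Cd4 and 85.5 CPM (62.1 to 115) with Klrb1c. Tnfsf8 was 76.4 CPM (61.4 to 94.1) with Cxcr5 and 65.2 CPM (57.0 to 74.3) with Klrk1 there. For Tnfsf11 the sham values were 1980 CPM (1904 to 2059) with Nrp1 and 1876 CPM (1830 to 1922) with Klrk1. Clusters 2 and 3, made without gate labels but with the gate genes not kept out, showed the same order. ILC3-like cluster 2, which held 57.4% (UUO) and 49.9% (sham) of the CCR6 gate, had Tnfsf8 at 134 and 191 CPM. ILC3-like cluster 3, which held 53.7% and 55.2% of the NCR gate, had Tnfsf8 at 10.4 and 16.6 CPM. In Tnf, the order was turned, with 46.4 and 37.1 CPM in cluster 2 and 185 and 131 CPM in cluster 3. ILC3-like cluster 1, which held 40.0% (UUO) and 46.3% (sham) of the CCR6 gate and 37.6% and 36.2% of the NCR gate, lay between them. It had Tnfsf8 at 35.7 and 37.5 CPM and Tnf at 67.7 and 50.9 CPM.

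Tnfsf8 UMIs were gathered in few cells. The 1% of CCR6-gated cells with the most of them held 51.6% (UUO) and 40.0% (sham) of the gate's Tnfsf8 UMIs, and a single UUO cell held 31. For Tnfsf11 the same 1% share was 5.43% and 6.41%. Across ILC3-like cells thinned to 1000 UMIs, Tnfsf11 was found in 72.7% (64.3 to 80.1) of Tnfsf8-positive UUO cells and 64.2% of Tnfsf8-negative ones. The sham shares were 72.1% (63.5 to 79.6) and 63.0%. Tnf was in 5.59% (4.15 to 7.34) of Ltb-positive and 7.90% of Ltb-negative cells after UUO, and in 5.85% (4.27 to 7.80) and 5.81% after sham. No interval was made for the Ltb-negative shares, and the differences were not tested.

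**Figure D2:**
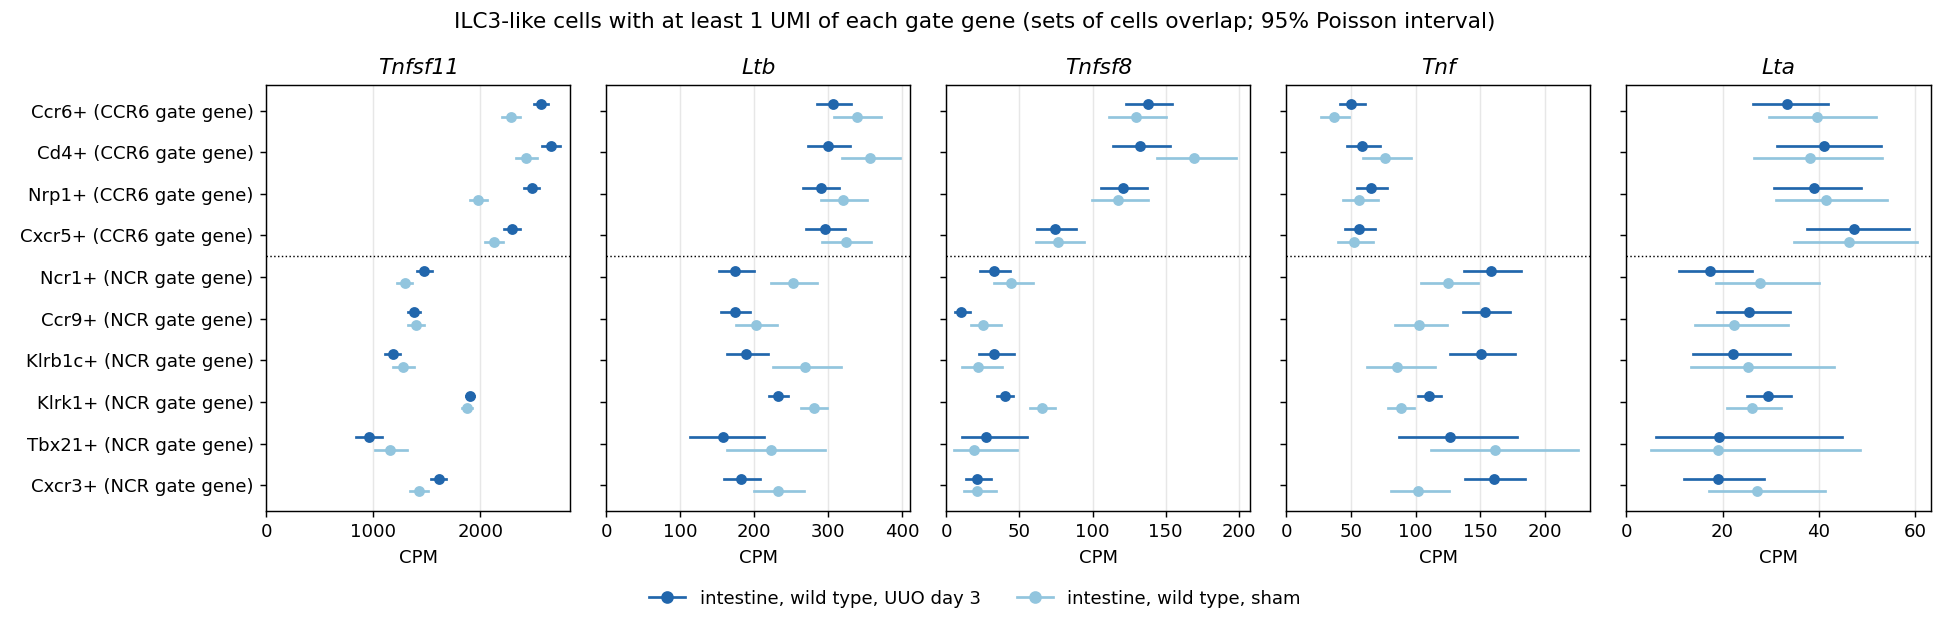
Level (CPM, 95% Poisson interval) of 5 genes in ILC3-like cells that hold at least 1 UMI of each gate gene, with the CCR6 gate genes above the dotted line and the NCR gate genes below it, for the UUO library (dark) and the sham library (light). Tnfsf11 and Tnfsf8 lie further right above the line and Tnf further right below it, in both libraries.

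Among other genes of the family, 2 ligands were lower in the CCR6 gate after UUO, and these lists were read against the same shares of all genes. Fasl, the death ligand of cytotoxic cells, had 3 UMIs in the CCR6 gate and 127 in the NCR gate, a log2 ratio of -4.45 (-6.74 to -2.87). Tnfsf14, which encodes LIGHT, a further ligand of the lymphotoxin beta receptor, was 18.2 against 54.6 CPM after UUO and 26.7 against 58.8 CPM after sham, log2 ratios of -1.59 and -1.14. Of the listed ligands, 3 of 11 (UUO) and 2 of 11 (sham) had enough UMIs, and none was higher in the CCR6 gate. Of 7 receptors tested in each library, Tnfrsf1a, a TNF receptor, was lower in both, at 17.1 against 35.6 CPM after UUO and 13.03 against 37.5 CPM after sham. Tnfrsf18, which encodes GITR, was also lower in both, with log2 ratios of -0.73 and -0.87. Tnfrsf11a, the receptor of RANKL, was higher in the sham library only, at 39.8 against 17.1 CPM, and was not tested for a difference between the libraries. Of 18 tested genes of NF-kB and TRAF signalling, none passed after UUO and 1, Traf6, was lower after sham (-0.69).

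Between UUO and sham, the members in ILC3-like cells stayed within 1.5 fold. None of 5 tested genes passed the threshold, where 3.31% of 9100 genes were higher and 1.18% lower. The Tnf levels differed by a log2 ratio of 0.43 (0.27 to 0.59), the largest among the 5, with intervals of the libraries that did not overlap. Tnfsf8 had -0.32 (-0.50 to -0.14), Ltb -0.19 (-0.28 to -0.10) and Tnfsf11 0.12 (0.09 to 0.16), all counting intervals that leave out 0 and none near 1.5 fold. Lta, with -0.05 (-0.30 to 0.22), had an interval that holds 0.

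Within the gates, Tnfsf8 was past the threshold in the NCR gate. Its level there was 19.6 CPM (15.3 to 24.7) after UUO and 40.0 CPM (32.5 to 48.7) after sham, a log2 ratio of -1.03 (-1.49 to -0.58), and it was the 1 of 5 tested members to pass, where 2.91% of 6830 genes were higher and 1.61% lower. The count behind it was 71 UMIs after UUO and 98 after sham, and 64.8% and 56.1% of them lay in the 1% of cells with the most. With at least 300 UMIs asked for, the gene was no longer tested. Tnf in this gate was 144 CPM after UUO and 99.2 CPM after sham, 0.53 (0.31 to 0.76). In the CCR6 gate none of 5 members passed, where 3.02% of 5198 genes were higher and 1.6% lower. The Tnfsf8 level there was 138 CPM after UUO and 117 CPM after sham, 0.24 (-0.04 to 0.53), and Tnfsf11 had 2573 and 2214 CPM, 0.22 (0.15 to 0.28). With the gates drawn after thinning, the Tnfsf8 ratio in the CCR6 gate was 0.65 and passed. By cluster in place of gate, Tnfsf8 had log2 ratios of -0.07 in cluster 1 and -0.51 in cluster 2, neither past the threshold, and 31 (UUO) and 36 (sham) UMIs in cluster 3, too few to test. No member passed in clusters 1, 2 or 3, where 2.89%, 3.09% and 2.49% of genes were higher and 1.55%, 1.38% and 1.67% lower.

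Gut epithelial RNA differed between these libraries. The summed level of 12 epithelial markers in ILC3-like cells, all 12 of them counted, was 1318 CPM after UUO and 638 CPM after sham, and in the NCR gate 1321 and 652 CPM, with all 12 counted in each. In epithelium-like cells Ltb was 29.4 CPM (24.1 to 35.5) after UUO and 60.6 CPM (47.5 to 76.2) after sham, and Tnf 18.5 and 30.7 CPM, so that 2 of 3 tested members were lower there, where 8.11% of 6389 genes were higher and 8.19% lower. The part of the epithelial RNA in the ILC3 values was not tested. With the shared barcodes left out, no member tested in ILC3-like cells, their gates, clusters 1 to 3 or between the gates changed its side of the threshold. In epithelium-like cells, which held most shared barcodes, Ltb was then 31.5 CPM after UUO and 70.6 CPM after sham, -1.17 (-1.79 to -0.52), and Tnf 19.1 and 38.5 CPM, -1.01 (-1.85 to -0.12), and both had too few UMIs for a call.

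**Figure D3:**
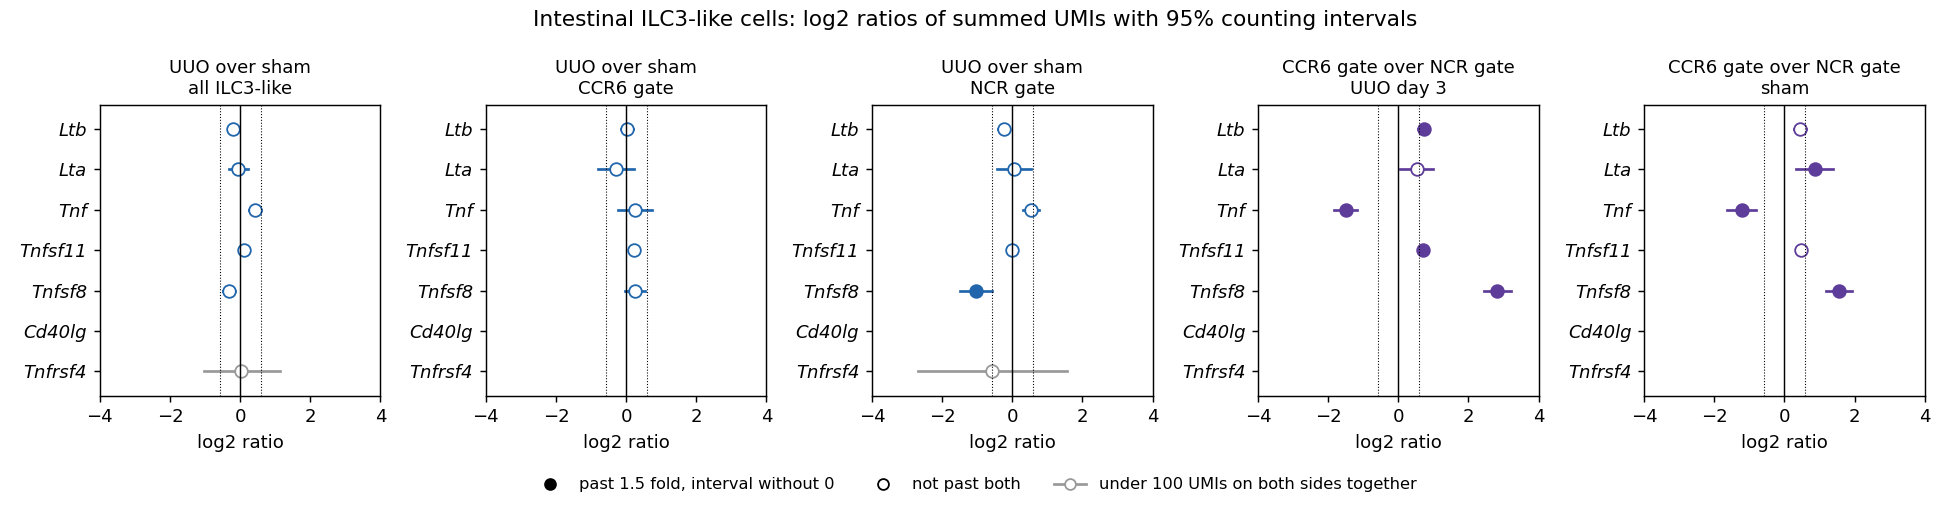
Log2 ratios of the 7 genes in intestinal ILC3-like cells with 95% counting intervals, UUO over sham in the first 3 panels and CCR6 gate over NCR gate in the last 2; filled points passed the threshold, grey points had under 100 UMIs, genes with under 10 UMIs or with 0 on 1 side are not drawn, and dotted lines mark 1.5 fold. Between UUO and sham only Tnfsf8 in the NCR gate is filled (-1.03), while between the gates Tnfsf8 (2.82 and 1.54) and Tnf (-1.50 and -1.22) are filled in both libraries.

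Of the wider family in ILC3-like cells, UUO and sham differed little. Of 5 tested ligands 1 was lower, Tnfsf4, the ligand of OX40, at 8.45 CPM after UUO and 12.9 CPM after sham (-0.61, -1.07 to -0.15). None of 11 tested receptors passed. Of 19 genes of NF-kB and TRAF signalling 1 was lower, Traf5, an adaptor of these receptors, at 4.28 and 9.30 CPM (-1.12, -1.73 to -0.52). In the CCR6 gate Traf6 was higher, at 65.8 CPM after UUO and 38.4 CPM after sham (0.78, 0.31 to 1.26). The medians of the 3 lists in ILC3-like cells, -0.08, -0.16 and -0.12, lay near that of all tested genes, 0.00.

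In the kidney, the library labelled PD-1 knockout at day 3 of UUO had more CD30 ligand and less CD40 ligand RNA in its CD4, CD8 and other T-like gates than the wild-type library at day 14, and more OX40 RNA in the CD8 and other gates. Over all T-like cells together the Tnfrsf4 level was the lower one in that library, at 89.6 CPM (83.4 to 96.0) against 132 CPM (123 to 141) in wild type. Cd40lg in the CD4 gate stood at 113 CPM (89.3 to 140) in the PD-1 knockout-labelled library and 297 CPM (264 to 333) in wild type, a log2 ratio of -1.40 (-1.77 to -1.04). A UMI was found in 10.6% (7.52 to 14.5) of thinned cells in the first and 22.5% (19.0 to 26.4) in the second. In the CD8 gate the levels were 11.9 CPM (9.18 to 15.1) and 55.6 CPM (43.9 to 69.5), -2.23 (-2.73 to -1.74). The gate of other T-like cells held no Foxp3 UMI, and either none of Cd4, Cd8 and Trdc or a combination of them. There the levels were 68.0 CPM (57.5 to 79.9) and 197 CPM (182 to 213), -1.53 (-1.80 to -1.27). The intervals of the libraries did not overlap in any of these gates. In the gamma-delta gate Cd40lg was 35.8 CPM in the PD-1 knockout-labelled library and 20.2 CPM in wild type, from 12 and 9 UMIs, too few for a call.

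Different clusters filled the CD8 and other gates in the 2 libraries. Cluster 0 made up 87.8% of the CD8 gate in the PD-1 knockout-labelled library and 55.9% in wild type, and cluster 4, led by gamma-delta and innate-like genes, 2.88% and 15.2%. Of the other gate, cluster 0 made up 44.5% and 3.64%, and cluster 4 made up 24.5% and 68.2%. Within cluster 4 Cd40lg was 155 CPM (132 to 180) in the PD-1 knockout-labelled library and 213 CPM (197 to 231) in wild type, -0.46 (-0.72 to -0.21), which did not reach 1.5 fold. Within cluster 0 it had 33 and 8 UMIs, too few to test. In cluster 7, led by Cd4 and the holder of 83.2% of the CD4 gate in each library, it was 91.8 CPM (74.6 to 112) and 282 CPM (254 to 312), -1.62 (-1.95 to -1.29). The CD4 gate differed in its smaller parts, with 9.25% and 0.565% of its cells in cluster 0 and 0.289% and 6.78% in cluster 12. The part of this make-up in the Cd40lg ratios of the gates was not tested.

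Tnfsf8 was higher in the PD-1 knockout-labelled library in each of the 4 kidney classes and gates with enough UMIs. The CD4 gate had 626 CPM (569 to 687) in that library and 276 CPM (245 to 311) in wild type, 1.18 (0.96 to 1.40), with 32.2% and 17.2% of thinned cells positive. The CD8 gate had 86.3 CPM (78.8 to 94.4) and 49.9 CPM (38.8 to 63.1), 0.79 (0.43 to 1.18). The other gate had 152 CPM (136 to 169) and 35.9 CPM (29.7 to 43.1), 2.08 (1.77 to 2.40). Clusters 0 and 7 gave log2 ratios of 1.74 (1.10 to 2.46) and 1.25 (1.06 to 1.44). ILC1/NK-like cells, the innate lymphocytes with Ncr1, had 26.2 CPM (20.9 to 32.4) and 14.2 CPM (9.27 to 20.8), 0.88 (0.23 to 1.58). ILC2-like cells had 67 UMIs in the PD-1 knockout-labelled library and 8 in wild type, 26.0 and 6.20 CPM, which is under the minimum for a call.

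The Tnfrsf4 level was 60.6 CPM (54.3 to 67.4) in the CD8 gate of the PD-1 knockout-labelled library and 22.4 CPM (15.2 to 31.8) in that of wild type, 1.44 (0.90 to 2.02). The other gate had 88.4 CPM (76.3 to 102) and 49.7 CPM (42.2 to 58.0), 0.83 (0.52 to 1.14). In the CD4 gate it was 315 CPM (275 to 359) and 213 CPM (186 to 244), 0.56 (0.28 to 0.84), just under 1.5 fold. With clusters in place of gates, cluster 0 gave 2.07 (1.27 to 2.99) and cluster 7 gave 1.06 (0.81 to 1.33). Scaled by median ratio, the CD4 gate passed at 0.61, and the other gate fell short at 0.50 as a mean over cells and at 0.58 with gates drawn after thinning. In ILC2-like cells the ratio was -0.27 (-0.69 to 0.14) and its interval holds 0. Regulatory-gated cells, with 33 UMIs over 31 cells of the PD-1 knockout-labelled library, had the lower level in that library, and their make-up by cluster differed as given above.

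RANKL RNA was past the threshold, and lower in the PD-1 knockout-labelled library, in the CD8 and other gates, whose make-up by cluster differed as given above. In the CD8 gate Tnfsf11 was 25.0 CPM (21.01 to 29.5) in that library and 52.7 CPM (41.3 to 66.3) in wild type, -1.08 (-1.50 to -0.65). In the other gate it was 62.0 CPM (51.9 to 73.4) and 99.6 CPM (89.0 to 111), -0.68 (-0.99 to -0.39). ILC2-like cells, which had the most Tnfsf11 of the named kidney classes beside the CD4 gate, gave 199 and 286 CPM, -0.52 (-0.71 to -0.32), short of 1.5 fold. The ratio within cluster 4 was -0.41 (-0.78 to -0.05) and within cluster 7 -0.24 (-0.49 to 0.01), neither past the threshold, and within cluster 0 -0.70 (-1.34 to -0.01), which passed. The CD4 gate gave 200 CPM (168 to 236) in the PD-1 knockout-labelled library and 255 CPM (225 to 289) in wild type, -0.35 (-0.66 to -0.05), short of 1.5 fold. The gamma-delta gate, with 18 UMIs in each library, had 53.7 and 40.4 CPM.

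Of the lymphotoxin genes and Tnf, 1 passed in 1 gate, and Lta and Tnf had under 100 UMIs in most classes and gates. Ltb passed in none of the 6 classes and gates, with log2 ratios from -0.58 (-0.72 to -0.46) in the other gate, which passed at -0.63 as a mean over cells and at -0.59 without its top cell, to 0.06 (-0.28 to 0.40) in the gamma-delta gate. In ILC1/NK-like cells its level was 264 CPM in both libraries. Lta passed in the other gate, at 18.5 CPM (13.2 to 25.2) in the PD-1 knockout-labelled library and 28.4 CPM (22.9 to 34.9) in wild type, -0.62 (-1.19 to -0.07), and its intervals overlap. It fell short at -0.55 scaled by median ratio and at -0.52 with gates drawn after thinning. Within cluster 4, which fills most of the wild-type other gate, Lta was 35.4 and 35.5 CPM. Tnf in cluster 7 was 34.3 CPM (24.2 to 47.3) and 57.4 CPM (45.2 to 72.0), -0.74 (-1.35 to -0.16), which passed. With too few UMIs for a call, Lta in the CD8 gate was 8.27 CPM in the PD-1 knockout-labelled library and 19.5 CPM in wild type, -1.24 (-1.95 to -0.50). In the CD4 gate Lta was 15.5 and 32.5 CPM, -1.07 (-2.21 to -0.05), and Tnf was 28.1 and 63.0 CPM, -1.16 (-1.97 to -0.42), also under the minimum.

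Counted by gate, 2 members were higher and 2 lower of 5 tested in the CD8 gate, where 4.75% of 6988 genes were higher and 5.87% lower. In the CD4 gate 1 was higher and 1 lower of 5, where 4.39% and 7.11% of 3192 genes were. In the other gate 2 were higher and 3 lower of 7, where 5.64% and 10.5% of 6521 genes were. In ILC1/NK-like cells 1 of 2 was higher, where 3.69% of 6231 genes were higher and 4.06% lower. In ILC2-like cells none of 3 passed, where 5.3% and 3.01% of 5189 genes did, and in the gamma-delta gate the 1 tested member did not, where 3.71% and 7.81% of 1536 genes did. By cluster, the counts were 2 higher and 1 lower of 4 in cluster 0 (4.99% and 5.01% of genes), none of 4 in cluster 4 (3.43% and 7.97%), and 2 higher and 2 lower of 6 in cluster 7 (4.43% and 6.51%). The other gate also held red cell RNA: 4 of 4 erythroid markers summed to 1893 CPM in the PD-1 knockout-labelled library and 5.62 CPM in wild type, and their part in its ratios was not tested. The 12 ILC3 markers, which innate-like T cells share in part, summed there to 1670 CPM in the PD-1 knockout-labelled library, with Il22 at 0, and 3272 CPM in wild type, and their part was not tested either. In the CD8 gate, 3 of 4 erythroid markers were counted in each library, with Alas2 at 0, and summed to 74.6 CPM in the PD-1 knockout-labelled library and 2.89 CPM in wild type. The CD4 gate, also with 3 of 4 counted and Alas2 at 0, had 67.6 and 7.11 CPM. The ILC3 markers summed to 695 CPM in the PD-1 knockout-labelled library and 1474 CPM in wild type in the CD8 gate, all 12 counted, and to 1493 CPM, with Il22 at 0, and 2516 CPM in the CD4 gate. The 11 ILC1/NK markers, 10 and 11 of them counted, summed in the CD4 gate to 450 CPM (Klra8 at 0) in the PD-1 knockout-labelled library and 161 CPM in wild type. The part of these genes in the ratios of both gates was not tested.

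**Figure D4:**
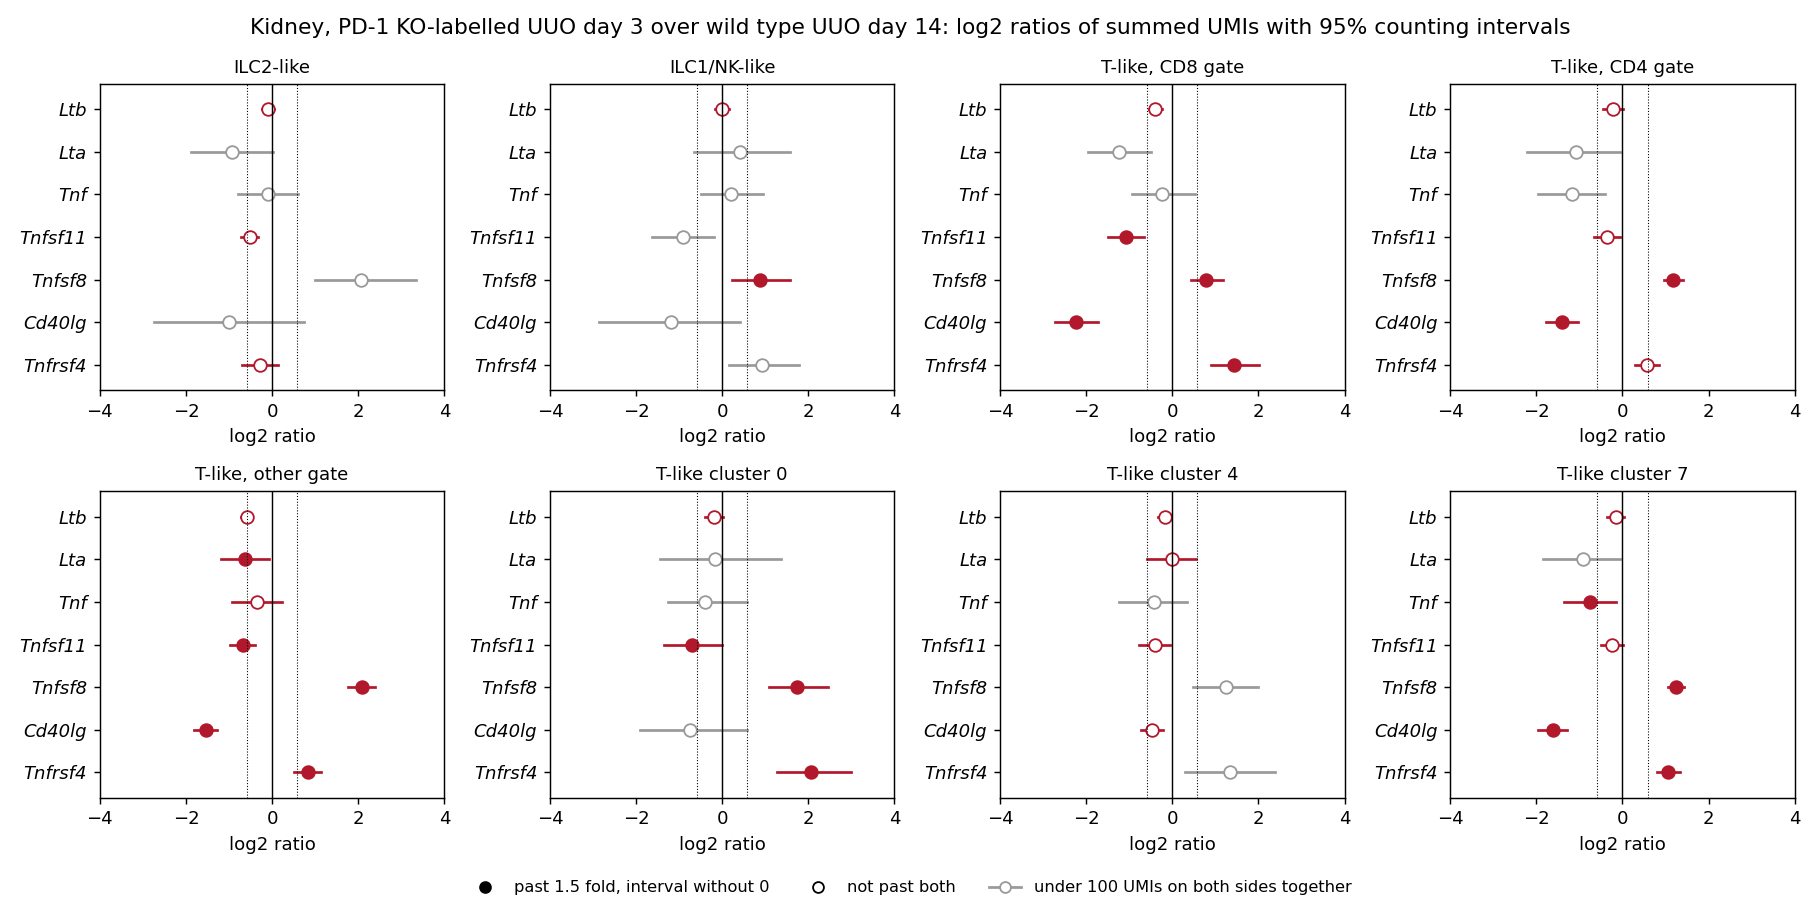
Log2 ratios of the 7 genes, PD-1 knockout-labelled kidney at day 3 over wild-type kidney at day 14, with 95% counting intervals, in ILC2-like and ILC1/NK-like cells, 3 gates and 3 clusters of T-like cells; filled points passed the threshold and grey points had under 100 UMIs. Tnfsf8 lies right of 0 in all 8 panels, Cd40lg lies left of 0 in all 8 but is filled only in the CD8, CD4 and other gates and in cluster 7, and Ltb stays between the dotted lines of 1.5 fold.

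Of other genes of the family past the threshold in the kidney, more were higher than lower in the PD-1 knockout-labelled library, to be read against the shares of all genes just given. In ILC1/NK-like cells Tnfsf4, the ligand of OX40, was 45.6 CPM in that library and 7.64 CPM in wild type, 2.58 (1.78 to 3.48), and Tnfsf10, the death ligand TRAIL, was 65.0 and 129 CPM, -0.99 (-1.26 to -0.71). These were 1 higher and 1 lower of 5 tested ligands. Of 8 receptors there 3 were higher, Tnfrsf25 (1.65), Fas (1.39) and Tnfrsf9 (0.69), and none lower. Of 17 genes of NF-kB and TRAF signalling 4 were higher and none lower: Nfkbie (0.95) and Nfkb2 (0.93), an inhibitor and a subunit of NF-kB, Rel (0.79) and Traf1 (0.71). In the CD8 gate Tnfsf4 was also higher (1.74, 0.64 to 3.09), as 1 of 4 ligands, and receptors were split, with 3 higher and 3 lower of 9. Those higher included Tnfrsf9 (0.71) and Cd27 (0.70), and those lower included Tnfrsf10b (-0.95) and Tnfrsf1a (-0.70).

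Of the NF-kB and TRAF list, 2 of 18 genes were higher in the CD8 gate, 3 of 14 in the CD4 gate, 4 of 17 in the other gate and none of 16 in ILC2-like cells, and none was lower in any of them. Nfkbia, the NF-kB inhibitor that NF-kB itself induces, was 766 CPM in the PD-1 knockout-labelled library and 483 CPM in wild type in the CD8 gate, 0.67 (0.55 to 0.79). In the CD4 gate it was 1283 and 783 CPM, 0.71 (0.57 to 0.85), and in the other gate 897 and 535 CPM, 0.74 (0.65 to 0.84). The median log2 ratio of this list was 0.24 in the CD8 gate, 0.21 in the CD4 gate, 0.31 in the other gate and 0.03 in ILC2-like cells, where all tested genes had medians of -0.03, -0.05, -0.06 and 0.02. In the CD4 gate Fasl was higher (0.84, 0.31 to 1.37), the 1 ligand tested there, and of 3 receptors Tnfrsf18 was higher (0.68) and Tnfrsf9 lower (-0.66). In the other gate Fasl (0.89), Cd27 (1.26) and Fas (0.67) were higher, and Tnfrsf13b (-0.62) and Tnfrsf10b (-0.61) lower.

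In the CD4 gate of the kidney RANKL and CD30 ligand RNA were found together. Of thinned Tnfsf11-positive cells, 50% (35.2 to 64.8) also held Tnfsf8 in the PD-1 knockout-labelled library, against 29.2% of Tnfsf11-negative cells. The wild-type shares were 25.6% (16.8 to 36.1) and 15.5%.

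Over 24 classes and gates with at least 100 cells, the patterns of the members were set beside those of 4220 other genes, using Pearson's correlation of log2(CPM + 10). These points share libraries and depths, and gates lie within classes, so the values are descriptions. Fam110a (0.97), Xlr4c (0.96) and Uhrf2 (0.96) were most like Tnfsf11. Smarca2 (0.95), Aebp2 (0.94) and Pak2 (0.94) were most like Ltb. For Tnf they were BC031181 (0.88), 4930503L19Rik (0.87) and Golph3 (0.86), and for Tnfsf8 Tmem65, Trir and Ppp4r2 (all 0.76), the weakest set of the 6. Slamf1 (0.93), Ccr4 (0.92) and Cd5 (0.91), all surface molecules of T cells, were most like Cd40lg. Hif1a (0.93), Ass1 (0.92) and Izumo1r (0.92), the last a folate receptor gene of regulatory T cells, were most like Tnfrsf4. Lta, under 100 CPM in every class, was given no such list. Among the members themselves, Tnf was most like Tnfsf11 (0.86) and gave 0.00 with its neighbour Ltb, and Lta was closer to Tnfsf11 (0.76) and Tnf (0.69) than to Ltb (0.51). Between the gates of ILC3-like cells, however, Tnf and Tnfsf11 ran in opposite directions. The log2 ratios of CCR6 over NCR gate were -1.50 (UUO) and -1.22 (sham) for Tnf, and 0.70 and 0.47 for Tnfsf11.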

How the data were processed

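Single-cell RNA-seq of sorted lymphocytes from mouse kidney and intestine was made on BD Rhapsody, per the labels. The deposited values are raw UMI counts per gene and cell, which the authors made with CASAVA 1.8, UMI-tools and Seurat on mm10, per the submitters' processing notes. Aligner and annotation are not stated in the labels. The wild-type day 14 kidney matrix was read without a gene list of its own, and its rows were named by their order in the list of other libraries. That order was checked against the other libraries (correlation across genes 0.992 with the PD-1 knockout-labelled kidney, 0.209 when shifted by 1 gene). A wild-type kidney library at day 3 is not analysed here beyond its barcodes.

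Cells under 500 UMIs or 250 genes, or with over 20% of UMIs from mitochondrial genes, were dropped. The rest were clustered with scanpy 1.11.5 and leidenalg 0.10.2 (2000 variable genes without the 7 genes, 30 components, 15 neighbours, Leiden resolution 1, seed 1) and named "-like" from at least 3 markers, 2 fold up and in at least 10% of cells. Scrublet called at most 0.115% of cells doublets, which shows no working call, so doublets were kept. UMIs were summed per class or gate and library. Poisson, binomial and conditional binomial ratio intervals (scipy 1.17.1, numpy 2.4.6, pandas 2.3.3) are exact at 95% and cover counting error only. A 0 is bounded by 3 counts. The total depth was 16466027 (PD-1 knockout label) and 10362652 (wild type) UMIs in kidney, and 14756545 (UUO) and 8717372 (sham) in intestine. The ratio step was tested on simulated counts. All 7 genes were measured in every class and gate, and only a part of those levels is given here. Of the lists of ligands (11 genes), receptors (19) and NF-kB and TRAF genes (19), up to 4 of those past the threshold are named per comparison, by size. The 3 genes most like each member are named. Members and lists were chosen with earlier results of these data known. Alternatives covered scaling, cell and UMI filters, gates, clusters, shared barcodes and top cells. A small set of kidney cells chosen by single marker genes is not reported here.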

Additional observations from a re-analysis of the deposited data

Results flagged for a closer look

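The Tnfsf8 ratio between UUO and sham pointed in opposite directions in the gates of ILC3-like cells. It was -1.03 in the NCR gate, at 19.6 CPM after UUO and 40.0 CPM after sham, and 0.24 in the CCR6 gate, at 138 and 117 CPM. With 1 library per group the difference between the gates was not tested. Most of these UMIs lay in few cells, and the direction in the CCR6 gate was not shared by cluster 2 (-0.51), which held most CCR6-gated UUO cells.

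The Tnfrsf4 ratio of the PD-1 knockout-labelled kidney over wild type was 1.44 in the CD8 gate and 0.83 in the other gate of T-like cells, and -0.27 in ILC2-like cells, where its interval held 0. These differences were not tested, and genotype and day cannot be told apart in any of them.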

How the results depend on the processing

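No paired analysis was possible because each group held 1 library. The planned removal of cells called doublets by Scrublet was not run, since it called almost none; leaving out the 5% of cells with the highest doublet scores, leaving out the cell with the most UMIs of a gene, clusters in place of gates, and leaving shared barcodes out of epithelium-like cells and clusters were chosen after seeing the data. Of 515 values of members in the other classes and gates under the alternatives, 505 moved by less than their counting interval and 10 moved further. With no minimum of UMIs and with at least 300, 48 values each, only the choice of tested genes changes, so these values could not move. Of the values past the threshold in the main run, 0 changed sign, and changes of sign were not counted for the others. In all, 13 calls were lost and 7 gained. Between UUO and sham the members' count over ILC3-like cells and their gates was 1, against 0 with at least 300 UMIs and 2 with gates drawn after thinning to 1000 UMIs. The kidney count was 12 over its gates (8 to 18 over the alternatives) and that of the gate comparison 7 (5 to 8). With at least 300 UMIs, Tnfsf8 in ILC1/NK-like cells, Tnfsf11 and Cd40lg in the CD8 gate, Lta in the other gate, and Tnfsf8 and Lta between the sham gates were no longer tested. With gates drawn after thinning, Cd40lg in the CD8 gate (-2.64) had too few UMIs, Tnfsf8 between the sham gates was 0.77 and in the kidney other gate 1.56, and Lta between the UUO gates passed (0.75). With gates at 2 UMIs, Tnfsf8 between the UUO gates was 3.78, Tnf -1.97, Tnfsf11 0.91 and Lta 0.75, and between the sham gates Tnfsf11 passed (0.64) and Lta (1.22) no longer did. As a mean over cells, Tnfsf8 between the sham gates was 1.12. Over all genes, the count of calls with no minimum of UMIs and with at least 300 was 863 and 147 in ILC3-like cells (408 at the minimum of 100), 706 and 40 in the CCR6 gate (240), 755 and 52 in the NCR gate (309), 991 and 105 in ILC2-like cells (431), 1006 and 168 in ILC1/NK-like cells (483), 1302 and 280 in the CD8 gate (742), 1020 and 94 in the CD4 gate (367), 714 and 29 in the gamma-delta gate (177), 1816 and 430 in the other gate (1054), 1502 and 355 between the UUO gates (782), and 1278 and 246 between the sham gates (637). Genes under 100 UMIs on both sides together were beyond the depth of these libraries.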
